A study of Homo sapiens with 12 samples.

Results

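Huh7 and HLF are established lines of hepatocellular carcinoma, the common cancer of liver cells, and their RNA was compared in flat culture (2D) across all genes. The comparison used the 4 libraries that the labels give as 2D, 2 biological replicates of each line, out of 12 libraries in the series. The other 8 libraries came from the same lines in 3D culture in Matrigel and entered the shared estimate of spread and the last comparison below. Both groups were wild-type cells in DMEM with fetal bovine serum and antibiotics, and were taken at about 90% confluence on day 2, with no added agent named in the labels. Each kind of tumour cell is represented by 1 line, so a difference between hepatocyte-like and mesenchymal-like cells cannot be told apart from anything else in which these 2 lines differ. The p-values measure the spread between labelled biological replicates of a line. In RNA from whole cultures, fewer cells with a transcript and less of it per cell cannot be told apart.

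Hepatocytes secrete most proteins of blood plasma, clear lipoproteins and bile acids, and detoxify ammonia and drugs, under a network of transcription factors that includes HNF4A, CEBPA and the FOXA proteins. Liver tumours keep this programme to a varying degree: Huh7 is known as a well differentiated line, and HLF as a poorly differentiated one with mesenchymal traits. Mesenchymal cells, such as fibroblasts, are single motile cells that build matrix and hold contractile actin bundles.

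The libraries held 16041906 and 15974920 counts in Huh7 and 15556397 and 15262526 in HLF. The 10 most counted genes took 9.42% and 9.06% of the counts in Huh7 and 5.71% and 5.67% in HLF. Levels are given as CPM, which scale counts to a common library size, here the total corrected by TMM, a method that matches libraries on the bulk of their genes. In these 4 libraries 3 counts correspond to 0.186 to 0.202 CPM. A log2 fold change is positive where Huh7 was higher, carries as its error (±) a standard error worked out from the test statistic, and is printed only for genes with more than 3 counts in the lower line. Where a line holds few counts this error can be smaller than the counting error. Where a line had no counts, the ratio was taken against 3 counts over its 2 libraries and is a lower bound.

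The labels were checked against markers of cell types. All 12 hepatocyte markers were higher in Huh7, and their summed level was 25200 and 24800 CPM in Huh7 against 174 and 172 in HLF, most of the HLF sum being FGB, a fibrinogen chain, at 167 and 166 CPM. Of 11 stellate cell or fibroblast markers, 7 were lower in Huh7, 2 were higher and 2 were not called. The summed level of those markers was 335 and 329 CPM in Huh7 and 380 and 374 in HLF, with COL1A2 and PDGFRA the 2 markers higher in Huh7. Of 9 cholangiocyte markers, 4 were higher and 5 lower in Huh7: KRT19 was at 37.1 and 44.7 CPM in Huh7 and 0 in HLF, and KRT7 at 0 in Huh7 and 7.68 and 6.93 in HLF. Of the 8 endothelial and 8 immune markers, 6 in each list were too low to test. The immune marker at a high level was LYZ, the secreted enzyme lysozyme, at 335 and 318 CPM in Huh7 and 0 in HLF, while the leukocyte marker PTPRC had 0.133 and 0 CPM in Huh7 and 0 in HLF.

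Most genes differed between the lines. Of 19342 genes tested, 14941 were called at an adjusted p under 0.05 in edgeR's quasi-likelihood test, 77.2% of them. Of these, 7364 genes (38.1%) were higher and 7577 (39.2%) lower in Huh7, and the median log2 fold change over all genes was -0.024. At least 2-fold differences were called for 9329 genes (48.2%). Differences of at least 16-fold were called for 1777 genes higher (9.19%) and 1703 lower (8.8%) in Huh7. Both libraries of one line lay above both of the other for 16928 genes (87.5%). Any count of called members below should be read against these shares. Among protein-coding genes, 11978 of 14491 were called (82.7%), 40.9% higher and 41.8% lower in Huh7.

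Some of the most abundant transcripts differed little. The 6 called genes of highest FPKM with a log2 fold change under 0.2 in size were MT-CO3, a mitochondrial subunit of the respiratory chain, YBX1, an RNA-binding protein, RPLP0, a ribosomal protein, HSP90B1 and HSPD1, chaperones of the endoplasmic reticulum and the mitochondrion, and PRDX1, a peroxidase. RPLP0 was at 2127 and 2254 CPM in Huh7 and 1979 and 1920.2 in HLF (log2 fold change 0.17 ± 0.04). HSPD1 was at 1235 and 1172 CPM in Huh7 and 1074 and 1091 in HLF (0.15 ± 0.04). Both Huh7 libraries lay above both HLF libraries for each of these genes but YBX1, which was lower in Huh7 (1185 and 1251 against 1387 and 1379.5 CPM). With libraries scaled by their totals alone the log2 fold changes of RPLP0 and HSPD1 were 0.01 and 0, not called, as that scaling moves the median of all genes to -0.18.

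**Figure D1:**
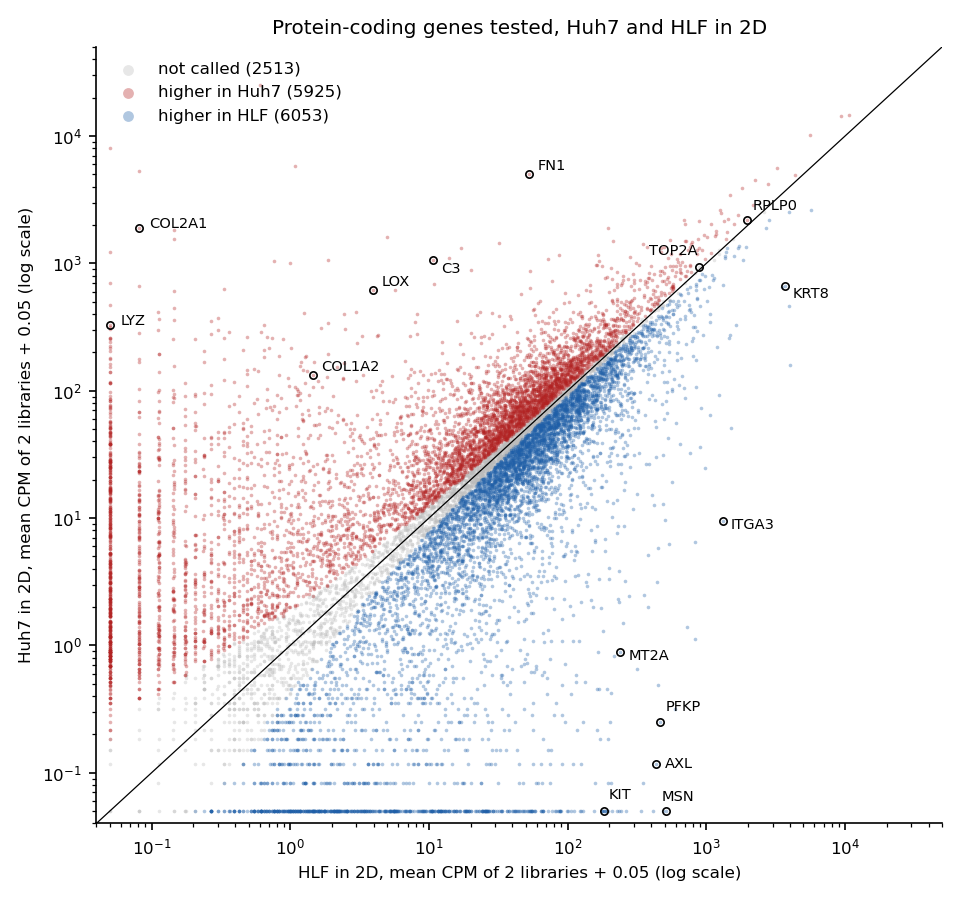
Mean CPM of each tested protein-coding gene in HLF (horizontal axis) and Huh7 (vertical axis) in 2D, each the mean of 2 libraries plus 0.05, both axes on a log scale. Points on the left and bottom edges are genes with no counts in one line, such as LYZ in HLF and MSN and KIT in Huh7, and 5925 genes were called higher in Huh7 and 6053 higher in HLF.

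Many protein-coding genes were read in one line and at 3 counts or fewer in the other. Of 12247 genes at 1 CPM or more in both Huh7 libraries, 671 (5.48%) had at most 3 counts over both HLF libraries, and 373 of those had none. In the other direction the count was 548 of 11883 (4.61%), with 392 at no counts in Huh7. Among the 92 genes at 1000 CPM or more in Huh7, 6 were at 3 counts or fewer in HLF, and among the 61 such genes of HLF 0 were at 3 counts or fewer in Huh7.

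The abundant genes that only Huh7 held above 3 counts were mainly plasma proteins, but 4 of the 15 with the highest FPKM are best known from other tissues. COL2A1, the collagen of cartilage (ENSG00000139219, chr12:47972965-48004554), stood at 1842 and 1931 CPM in Huh7. HLF held 1 count of it over both libraries, and the ratio was 60390 (95% counting interval 10840 to 2385000). LYZ was at least 3483-fold higher in Huh7. CD7, a surface protein of T cells, was at 289 and 339 CPM in Huh7 and had no counts in HLF, at least 3350-fold. SPINK1, a trypsin inhibitor of the pancreas, was at 144 and 168 CPM in Huh7 and 0 and 0.189 in HLF. For all 4 genes the 2 Huh7 libraries were close to each other and far above both HLF libraries.

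The 15 most abundant genes that only HLF held above 3 counts included 8 cancer testis antigens, genes usually silent outside the germ line. The other 7 were MSN, which links actin to the membrane, AXL, a receptor tyrosine kinase, BASP1, a membrane protein of neurons, CBLN2, a synapse organiser, TUBA3C, a testis tubulin, SHISA2 and KRT80, a keratin. KRT80 was at 239 and 229 CPM in HLF and had no counts in Huh7, so HLF was at least 2330-fold higher. BASP1 was at 204 and 187 CPM in HLF, at least 1948-fold higher. AXL was at 429 and 445 CPM in HLF with 2 counts in Huh7, and the ratio was 6516 (95% counting interval 1804 to 53810). TUBA3C has near-identical relatives in the genome, so its counts are uncertain.

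Among genes at 10 CPM or more in all 4 libraries, where a ratio rests on many counts in both lines, the 10 largest log2 fold changes in each direction ran from 4.17 to 6.63 and from -4.55 to -5.30. C3, the central complement protein, was at 1059 and 1054 CPM in Huh7 and 10.5 and 10.9 in HLF (6.63 ± 0.06, edgeR adjusted p = 1.14e-49). SLC7A2, a transporter of cationic amino acids, was at 1111 and 1073 in Huh7 and 13.5 and 14.3 in HLF (6.29 ± 0.06), and FADS2, which desaturates fatty acids, at 1287 and 1348 in Huh7 and 15.7 and 18.4 in HLF (6.27 ± 0.06). MAN1A1, a Golgi mannosidase, and ATP10D, a lipid flippase, followed (5.99 ± 0.07 and 5.48 ± 0.06). In the other direction stood CAVIN1 and CAV1 of caveolae (-5.30 ± 0.06 and -4.86 ± 0.07), AKAP12, a scaffold of protein kinase A (-5.26 ± 0.07), KIRREL1, a cell adhesion protein (-4.74 ± 0.07), and MVP, the shell protein of vault particles (-4.66 ± 0.08). FLNA, which crosslinks actin, and TPM1, a tropomyosin, belonged to the same 10 (-4.65 ± 0.04 and -4.55 ± 0.06).

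The sequence just upstream of the start is shown for 6 genes from either end of the comparison, since hepatocyte genes are known to carry the motif GTTAATNAT and sites for HNF4 there and actin genes CArG boxes, the site of serum response factor. Letters come from the RefSeq promoter table of build GRCh38.p14, are written 5′ to 3′ in the direction of the gene and end at the base before the annotated start. Capitals mark a match to GTTAATNAT in AFP, ALB and FGA, to the HNF4 site CAAAGTCCA in AHSG and to a CArG box in FLNA and AKAP12. Both strands were searched, and the match lies on the opposite strand in FGA and AHSG. The stretches are chr4:73436081-73436220 for AFP, chr4:73404147-73404286 for ALB, chr4:154590743-154590882 for FGA, chr3:186612860-186613059 for AHSG, chrX:154374635-154374774 for FLNA and chr6:151239827-151239966 for AKAP12, with FGA and FLNA on the minus strand.
AFP: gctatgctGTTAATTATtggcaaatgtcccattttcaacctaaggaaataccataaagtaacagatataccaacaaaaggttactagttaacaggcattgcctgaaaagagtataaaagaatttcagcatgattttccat
ALB: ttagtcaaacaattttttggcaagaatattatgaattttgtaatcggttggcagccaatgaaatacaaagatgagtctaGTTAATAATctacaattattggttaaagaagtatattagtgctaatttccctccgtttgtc
FGA: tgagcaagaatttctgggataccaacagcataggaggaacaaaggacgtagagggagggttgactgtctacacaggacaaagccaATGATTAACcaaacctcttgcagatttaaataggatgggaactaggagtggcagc
AHSG: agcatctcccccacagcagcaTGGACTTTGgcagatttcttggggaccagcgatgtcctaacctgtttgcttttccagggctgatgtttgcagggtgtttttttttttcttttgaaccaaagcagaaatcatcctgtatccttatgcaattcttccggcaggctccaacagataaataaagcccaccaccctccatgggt
FLNA: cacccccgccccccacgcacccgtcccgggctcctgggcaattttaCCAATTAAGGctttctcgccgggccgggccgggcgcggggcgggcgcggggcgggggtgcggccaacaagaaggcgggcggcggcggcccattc
AKAP12: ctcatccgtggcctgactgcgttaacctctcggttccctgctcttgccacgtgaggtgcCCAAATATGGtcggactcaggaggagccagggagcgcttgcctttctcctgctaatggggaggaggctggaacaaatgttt

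The GTTAATNAT match began 132 bases before the start in AFP, 61 in ALB and 55 in FGA, and the HNF4 match 179 bases before it in AHSG. The CArG box began 94 bases before the start in FLNA and 81 in AKAP12. In CPM, AFP stood at 25782 and 24305 in Huh7 and 0.867 and 0.252 in HLF, ALB at 374 and 340.1 in Huh7 and 0 and 0.189 in HLF, FGA at 1600.1 and 1598 in Huh7 and 5.14 and 4.79 in HLF, and AHSG at 652 and 671 in Huh7 and 0.0619 and 0 in HLF. FLNA was at 155 and 162 CPM in Huh7 and 3941 and 4021 in HLF, and AKAP12 at 13.1 and 12.5 in Huh7 and 469.8 and 506 in HLF. The 6 were picked after their values were seen, because they hold a match. Of 11653 windows of tested protein-coding genes, from 250 bases before the start to 50 after it, 54 (0.463%) held GTTAATNAT, 41 (0.352%) the HNF4 site and 131 (1.12%) a CArG box. The table held a window for 958 of the 1306 protein-coding genes at least 16-fold higher in Huh7 and 775 of the 1040 at least 16-fold lower, under 80% of each, so a comparison of match shares between these groups is void and is not given. A match is a description of the letters and no record of binding.

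The tested secreted proteins of hepatocytes were higher in Huh7 with 1 exception in 4 lists. All 19 tested apolipoprotein and lipoprotein assembly genes, all 21 tested coagulation genes, all 23 tested plasma carriers and inhibitors and 17 of 18 tested complement genes were higher in Huh7. Further members, APOC4, F9, HRG, C9, ITIH4 and A1BG, were too low to test in Huh7 as in HLF. Their median log2 fold changes were 8.65, 7.45, 10.72 and 6.09, or 6.92, 7.77, 9.1 and 5.41 with bounds, that is, with genes at 1 to 3 counts in a line placed at their plain ratio and genes at none at their lower bound. C8G, a subunit of the complement membrane pore, was not called, at 0.8 and 1.21 CPM in Huh7 and 0.558 and 0.504 in HLF. Several members were read in both lines: FGB was at 1172 and 1161 CPM in Huh7 and 167 and 166 in HLF (2.81 ± 0.05). The 3 fibrinogen chains differed by unequal amounts, with FGA at 8.33 ± 0.08 and FGG at 5.49 ± 0.05. PROC and PROS1, anticoagulant proteins, were also read in both (2.88 ± 0.12 and 3.43 ± 0.07).

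Huh7 held the transcription factors of hepatocytes, with 24 of 25 higher, 1 lower and a median of 4.89. PROX1, a factor of early liver cells, was at 267 and 255 CPM in Huh7 and had no counts in HLF, at least 2782-fold. FOXA1 was at 117 and 119.6 CPM in Huh7 and 1.86 and 1.2 in HLF (6.26 ± 0.15), and CEBPA at 177 and 199.7 in Huh7 and 0.991 and 1.51 in HLF (7.23 ± 0.12). CEBPB, HHEX, RXRA and PPARA were read above 10 CPM in all 4 libraries, with log2 fold changes from 0.80 to 2.75.

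Metabolic genes of hepatocytes were divided, and some were low in both lines. Of 24 cytochrome P450 genes 9 were too low to test, among them CYP3A4, CYP1A2, CYP2C8 and CYP7A1, the main drug and bile acid enzymes of adult liver. Of the 15 tested, 11 were higher, 2 lower and 2 not called. The highest in Huh7 was CYP27A1, a mitochondrial sterol hydroxylase, at 51.7 and 58.4 CPM against 15.7 and 16.6 in HLF (1.77 ± 0.09). CYP1B1, an enzyme of many tumours and fibroblasts, was at 0.933 and 1.62 CPM in Huh7 and 72.6 and 70.6 in HLF (-5.80 ± 0.14). CYP24A1, which breaks down vitamin D, had no counts in Huh7 and 3.9 and 2.58 CPM in HLF.

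Conjugation enzymes were divided: 11 of 17 were higher in Huh7 and 6 lower. SULT2A1, the sulfotransferase of bile acids and steroids, was at 74.1 and 75.3 CPM in Huh7 with no counts in HLF, at least 797-fold. NNMT, which methylates nicotinamide, was at 1.4 and 0.74 in Huh7 and 28.6 and 26.5 in HLF (-4.67 ± 0.22), and TPMT, a methyltransferase of drugs, was lower in Huh7 as well (-1.65 ± 0.12). In the bile acid list 11 of 15 tested genes were higher and 4 lower, and the uptake carriers SLC10A1, SLCO1B1 and SLCO1B3 and the export pump ABCB11 were too low to test. The lower ones included ABCC2, an organic anion pump, at 49 and 44 CPM in Huh7 and 215 and 224 in HLF (-2.24 ± 0.06), and ATP8B1, a flippase of the bile canaliculus, at 7.13 and 6.33 in Huh7 and 156 and 158 in HLF (-4.54 ± 0.10). FGF19, a hormone that the gut sends to the liver, was at 29.6 and 26 CPM in Huh7 with no counts in HLF, at least 297-fold.

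Amino acid catabolism leaned to Huh7 in 12 of 15 tested genes, with 1 lower and 2 not called. HGD, of tyrosine breakdown, was at 119 and 116 CPM in Huh7 with 0 in HLF, and ASS1, of the urea cycle, at 93.8 and 102 in Huh7 and 0.124 and 0 in HLF. CPS1, which takes ammonia into that cycle, differed less, at 26.4 and 26 in Huh7 and 6.26 and 9.01 in HLF (1.78 ± 0.13). FAH, the last enzyme of tyrosine breakdown, was at 13.4 and 17.4 CPM in Huh7 and 18.3 and 17.2 in HLF (-0.21 ± 0.13, not called). Of 18 aldehyde and alcohol dehydrogenases 13 were higher and 4 lower. ALDH2, of ethanol breakdown, was at 114 and 117 CPM in Huh7 and 0.186 and 0.063 in HLF (9.76 ± 0.20), and ALDH1A1, a retinal dehydrogenase, at 1349 and 1359 in Huh7 and 385 and 364 in HLF (1.85 ± 0.04).

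**Figure D2:**
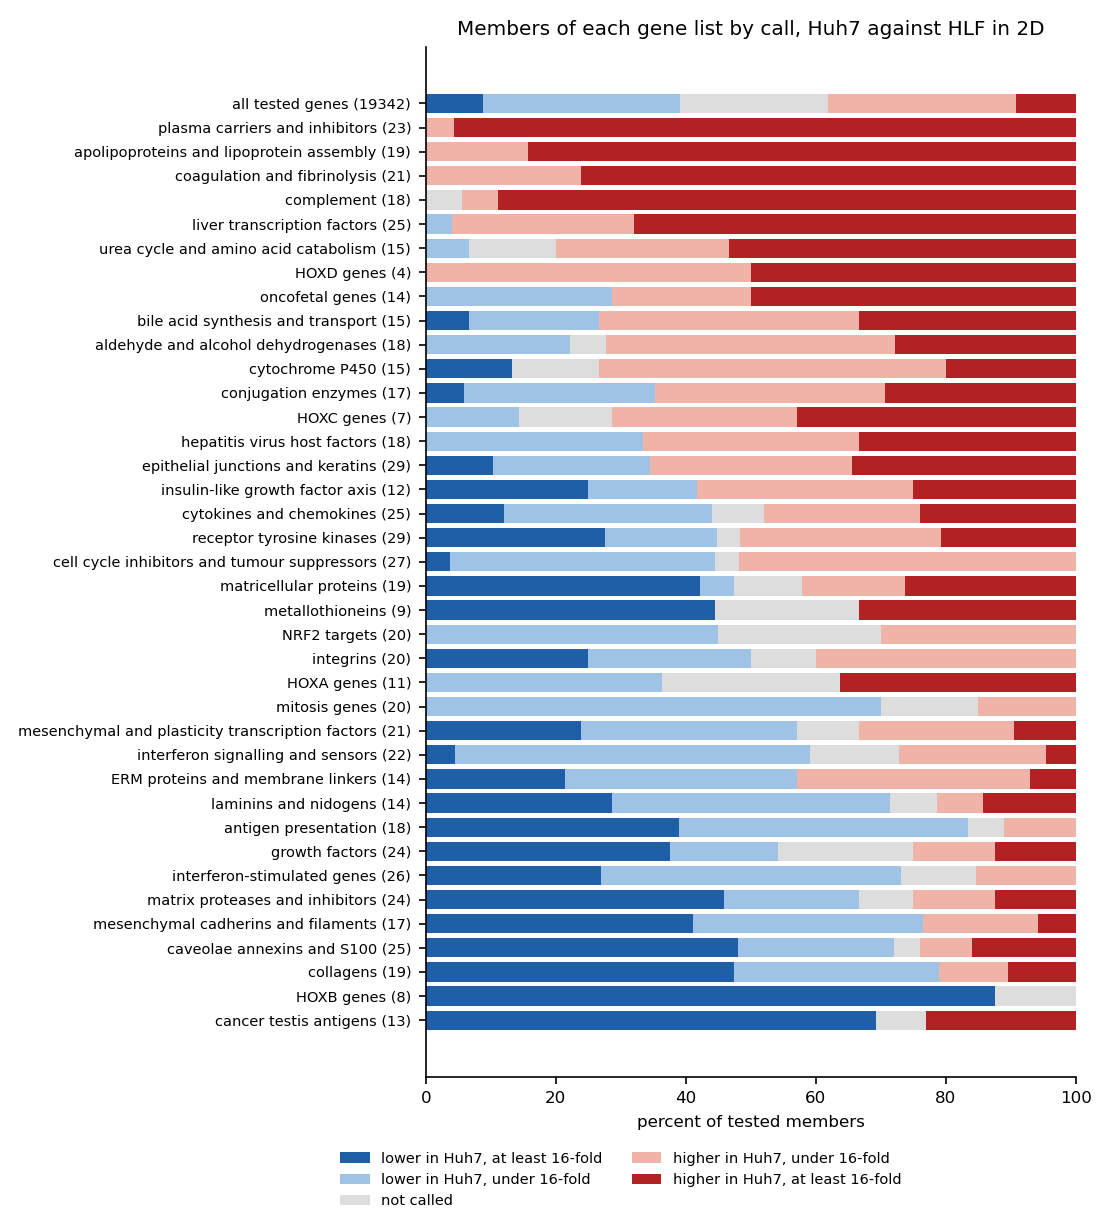
Share of the tested members of each gene list by call (horizontal axis, percent), with the number of tested members in brackets and lists ordered by their median log2 fold change. All tested genes stand in the top bar, with 9.19% at least 16-fold higher and 8.8% at least 16-fold lower in Huh7, and 22 of 23 plasma carriers and 12 of 13 cancer testis antigens differed by at least 16-fold in either direction.

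Enzymes that exist in several forms showed which form each line used. Levels of different genes are compared here per length, as deposited FPKM, while fold changes are those of the TMM-scaled counts. Of 40 genes for 16 steps, 37 were tested, 17 higher, 16 lower and 4 not called. HLF held PFKP, the platelet form of phosphofructokinase, at 96.9 and 101 FPKM, above its own PFKL and PFKM, and Huh7 held 0.0387 and 0.0388 (-11.10 ± 0.15, edgeR adjusted p = 5.74e-44). PFKL, the liver form, was not called, at 22.1 and 24.3 FPKM in Huh7 and 26.8 and 26.2 in HLF (-0.04 ± 0.05), and PFKM, the muscle form, stood at 19.3 and 19.5 in Huh7 and 14.1 and 14.8 in HLF. The phosphofructokinase FPKM of HLF thus came mostly from PFKP, and that of Huh7 from PFKL and PFKM.

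Lactate dehydrogenase also differed by chain. LDHA, the chain of muscle and liver, was not called, at 235 and 232 FPKM in Huh7 and 262 and 260.0 in HLF (-0.01 ± 0.04, 0.01 by DESeq2), while LDHB, the chain of heart, had no counts in Huh7 and 7.54 and 6.41 FPKM in HLF, so HLF was at least 199.6-fold higher. HK1, a hexokinase of most tissues, was at 0.455 and 0.467 FPKM in Huh7 and 8.68 and 9.47 in HLF (-4.14 ± 0.14), and HK2, a form common in tumours, at 19 and 19.9 in Huh7 and 11.4 and 12.4 in HLF (0.86 ± 0.06). Of the glucose transporters, SLC2A1 was higher in Huh7 (30.2 and 30.5 against 14.2 and 14.6 FPKM) and SLC2A3 was at 5.97 and 6.2 FPKM in HLF with 3 counts in Huh7.

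Fatty acid enzymes also differed by form. ACSL1, the acyl-CoA synthetase of liver and fat, was at 19.3 and 18.5 FPKM in Huh7 and 0.256 and 0.334 in HLF (6.15 ± 0.14), and ACSL4, a form that prefers polyunsaturated fatty acids, at 116 and 108 in Huh7 and 29.3 and 31.3 in HLF (2.04 ± 0.05). CPT1A, the liver form of the enzyme that admits fatty acids to mitochondria, went the other way, at 1.82 and 1.66 FPKM in Huh7 and 21.1 and 20.7 in HLF (-3.43 ± 0.08). ALDOC, an aldolase of brain, was at 27.9 and 27.7 FPKM in Huh7 and 0.329 and 0.246 in HLF (6.73 ± 0.15). The gene model of ALDOA overlaps a second gene ID in the table, so its low counts are uncertain and no comparison is made with it. MAT1A, the liver form of the enzyme that makes S-adenosylmethionine, was lower in Huh7 at 2.31 and 1.87 FPKM against 4.84 and 6.23 (-1.25 ± 0.16), and the ubiquitous MAT2A was at 46.9 and 46.1 in Huh7 and 57.9 and 59.1 in HLF.

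Matrix genes were mostly higher in HLF, yet members of the same family often went opposite ways. Of 19 tested collagen genes, 15 were lower in Huh7 and 4 higher, with a median of -3.45, or -2.83 with bounds. The 2 chains of type I collagen were parted: COL1A1 was at 1.4 and 1.75 CPM in Huh7 and 90.5 and 91.7 in HLF (-5.85 ± 0.15), and COL1A2 at 133 and 133 in Huh7 and 1.05 and 1.76 in HLF (6.55 ± 0.14). The chains of type V collagen were parted in the same way, with COL5A1 at 0 counts in Huh7 and 85.3 and 89.3 CPM in HLF, and COL5A2 at 102 and 100.1 CPM in Huh7 and 4.71 and 3.47 in HLF (4.62 ± 0.12). Of the paired chains of basement membrane, COL4A1 was at 348 and 353 CPM in HLF and 0.0666 and 0 in Huh7, and COL4A2 at 27.4 and 23.2 in HLF and 0 and 0 in Huh7. COL27A1, a fibrillar collagen of cartilage, was higher in Huh7 (3.89 ± 0.09). COL2A1 was higher in Huh7 too, but it is not a member of this list, and the counts and median leave it out. At 1842 and 1931 CPM in Huh7 it exceeded the summed level of the 19 tested members there, 757 and 802 CPM. In HLF that sum was 2490 and 2520 CPM.

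Of 14 laminins and partners 10 were lower in Huh7, 3 higher and 1 not called. LAMA3, a chain of epithelial laminins, was at 3.27 and 2.96 CPM in Huh7 and 133 and 138 in HLF (-5.44 ± 0.12), while LAMB1 and LAMC1, chains of a common laminin, differed little (-0.38 ± 0.04 and -0.42 ± 0.04) and LAMA5, a partner chain, was not called (-0.08 ± 0.06). Among 20 integrin chains 10 were lower and 8 higher. ITGA3, a laminin receptor, was at 9.53 and 9.29 CPM in Huh7 and 1285 and 1339.7 in HLF (-7.12 ± 0.06), the largest difference of the list, and ITGA5, of the fibronectin receptor, at 8.4 and 8.75 in Huh7 and 229.8 and 233 in HLF (-4.75 ± 0.08). ITGA6 and ITGA1, further laminin and collagen receptors, were higher in Huh7 (0.95 ± 0.05 and 1.16 ± 0.10). FN1, the ligand of ITGA5, was at 5124 and 4909 CPM in Huh7 and 51.5 and 53.2 in HLF (6.58 ± 0.05). Huh7 was thus higher in fibronectin RNA and lower in this receptor chain.

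Enzymes that cut or crosslink matrix leaned to HLF, with 16 of 24 genes lower and 6 higher in Huh7, with a median of -2.59, or -2.06 with bounds. LOX, lysyl oxidase, was at 628 and 614 CPM in Huh7 and 2.73 and 5.1 in HLF (7.31 ± 0.09), while its relatives LOXL1, at 0.2 and 0.269 CPM in Huh7 and 95.1 and 86.7 in HLF (-8.55 ± 0.18), and LOXL2, at 12.9 and 12.3 in Huh7 and 427 and 416 in HLF (-5.06 ± 0.07), were lower in Huh7. Inhibitors of metalloproteases were parted too: TIMP3 was higher in Huh7 (259.5 and 255 against 27.8 and 26.3 CPM, 3.25 ± 0.07), and TIMP1 and TIMP2 were lower (-7.15 ± 0.17 and -6.65 ± 0.10). MMP14, a membrane protease, was at 97 and 101 CPM in Huh7 and 4.27 and 3.28 in HLF (4.71 ± 0.12), and MMP1, interstitial collagenase, had no counts in Huh7 and 49.6 and 51.9 CPM in HLF. Of 19 matricellular proteins, 8 were higher and 9 lower. FBLN5, of elastic fibres, was at 48.6 and 45.5 CPM in Huh7 with no counts in HLF, while TNC had no counts in Huh7 and 481 and 498 CPM in HLF.

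Genes of cell shape and contact did not sort into an epithelial and a mesenchymal line by every member. Of 29 epithelial junction and keratin genes, 19 were higher in Huh7 and 10 lower. CDH1, E-cadherin, was at 129 and 136 CPM in Huh7 and 3.04 and 3.59 in HLF (5.32). DSP, desmoplakin, was at 415 and 381 CPM in Huh7 and 2.23 and 2.58 in HLF (7.36 ± 0.09), but DSG2 and DSC2, desmosomal cadherins that it serves, were lower in Huh7 (-1.45 ± 0.06 and -1.81 ± 0.09), as was OCLN, of tight junctions (-1.42 ± 0.08). KRT8 and KRT18, the keratin pair of simple epithelia, were lower in Huh7, KRT8 at 639.8 and 691 CPM in Huh7 and 3713 and 3612 in HLF (-2.46 ± 0.04) and KRT18 at 245 and 271 in Huh7 and 1492 and 1416 in HLF (-2.49 ± 0.05). Of 17 mesenchymal cadherin and filament genes 13 were lower and 4 higher in Huh7. VIM, vimentin, and CDH2, N-cadherin, were among the lower ones (-2.72 and -2.03). NES, nestin, was at 113 and 126 CPM in Huh7 and 3.59 and 5.42 in HLF (4.73 ± 0.12), and CALD1, caldesmon, at 418 and 402 in Huh7 and 30.1 and 26.8 in HLF (3.85 ± 0.06), against LMNA, lamin A, at 63.9 and 65.2 in Huh7 and 1061 and 1068 in HLF (-4.04 ± 0.05) and MYL9, a myosin light chain, at 6.33 and 6.13 in Huh7 and 552 and 526 in HLF (-6.43 ± 0.08).

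The list of caveolae, annexins, S100 proteins and galectins had 18 of 25 genes lower and 6 higher in Huh7, with a median of -3.28, or -1.97 with bounds. EHD2, of the caveolar neck, was at 1.8 and 3.1 CPM in Huh7 and 346 and 363 in HLF (-7.17 ± 0.10), and S100A6, a calcium-binding protein, at 2.8 and 3.77 in Huh7 and 209 and 189 in HLF (-5.92 ± 0.10). Galectins and annexins were parted: LGALS1 was at 0.733 and 0.471 CPM in Huh7 and 328 and 303 in HLF (-9.01 ± 0.13) and LGALS3 at 97.8 and 98.3 in Huh7 and 3.96 and 5.1 in HLF (4.43 ± 0.10), while ANXA1 was lower in Huh7 (168 and 175 CPM in HLF against 0.2 and 0.0673) and ANXA4 higher (2.43 ± 0.05). Of the 3 ERM proteins, which tie actin to the membrane, MSN had no counts in Huh7, and EZR and RDX were read in both lines (-1.41 ± 0.05 and -1.53 ± 0.05).

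**Figure D3:**
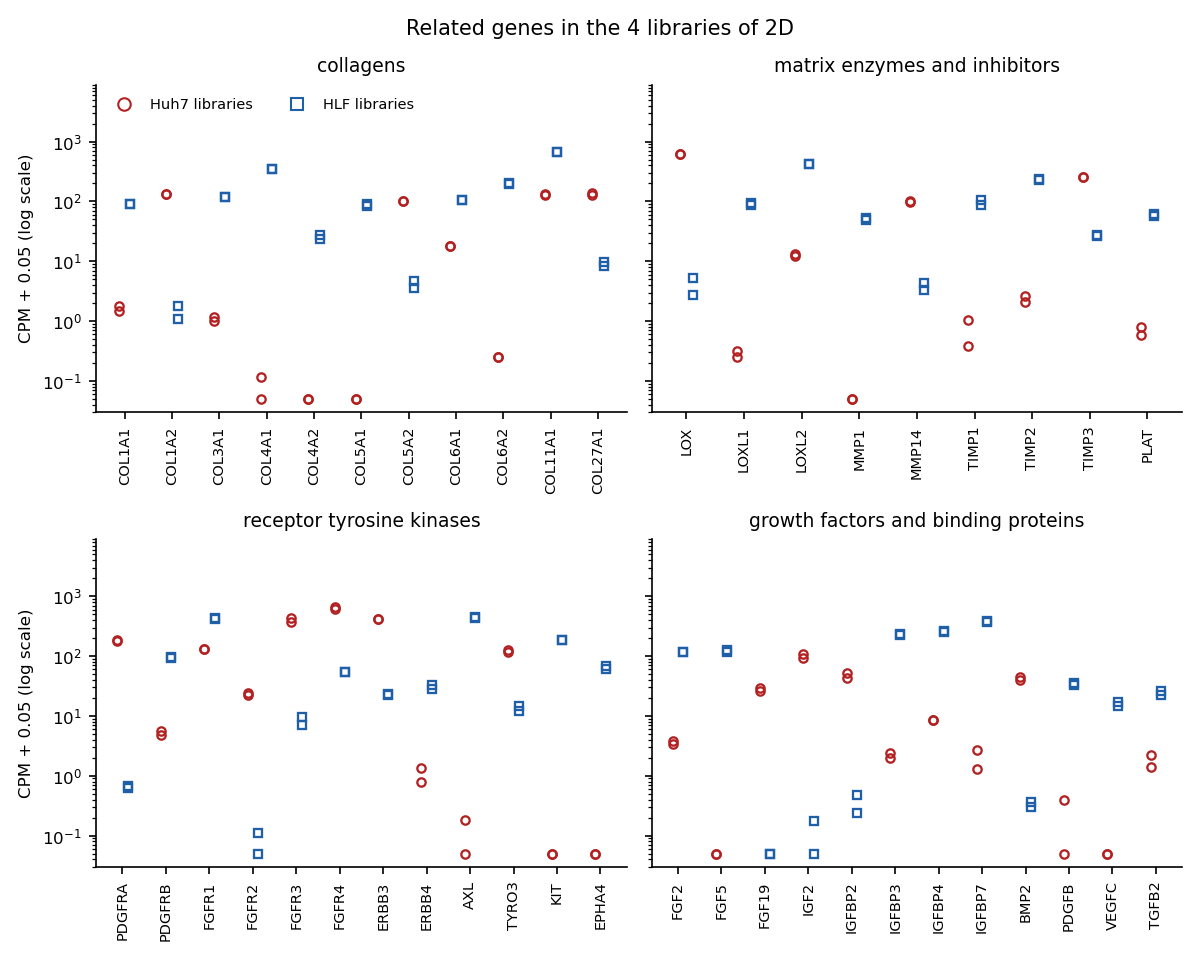
CPM plus 0.05 on a log scale (vertical axis) of related genes in each of the 4 libraries of 2D, with circles for Huh7 and squares for HLF. COL1A1 and COL1A2, LOX and LOXL1, PDGFRA and PDGFRB, and IGFBP2 and IGFBP3 lie on opposite sides, and the 2 libraries of a line lie close together beside the distance between the lines.

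Receptors and their ligands differed in which member each line held. Among 29 receptor tyrosine kinases, 15 were higher in Huh7, 13 lower and 1 not called, with a median of 0.29, and 14 differed at least 16-fold. PDGFRA was at 186 and 179 CPM in Huh7 and 0.619 and 0.567 in HLF (8.24 ± 0.13), and PDGFRB at 4.8 and 5.45 in Huh7 and 98.1 and 94.4 in HLF (-4.23 ± 0.11). FGFR3 was at 368 and 427 CPM in Huh7 and 9.42 and 6.87 in HLF (5.61 ± 0.09) and FGFR4 at 623 and 663 in Huh7 and 53.8 and 53.4 in HLF (3.58 ± 0.05), while FGFR1 was lower in Huh7 (-1.66 ± 0.05). Huh7 held ERBB3 at 414 and 419 CPM against 23.6 and 22.7 in HLF (4.17 ± 0.06), and HLF held ERBB4 at 28.4 and 33.4 against 0.733 and 1.28 (-4.93 ± 0.22). KIT had no counts in Huh7 and stood at 183 and 182 CPM in HLF, at least 1820-fold higher, and EPHA4 had none in Huh7 and stood at 61.4 and 67.9 in HLF, at least 643-fold higher. EGFR and MET, common growth factor receptors, differed less (-0.48 ± 0.04 and -0.83 ± 0.05).

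Of 24 growth factor genes 13 were lower in Huh7, 6 higher and 5 not called. HLF held FGF5 at 119 and 127 CPM, with no counts in Huh7, at least 1225-fold, and FGF2 at 117 and 119 against 3.33 and 3.7 in Huh7 (-5.06 ± 0.12). NRG1, a ligand of ERBB3 and ERBB4, was at 2.2 and 1.55 CPM in Huh7 and 80 and 78.1 in HLF (-5.39 ± 0.14), and BMP2 at 40.3 and 45.1 in Huh7 and 0.248 and 0.315 in HLF (7.20 ± 0.23). In the insulin-like growth factor axis 7 of 12 genes were higher and 5 lower. IGF2 was at 92.4 and 108 CPM in Huh7 and 0 and 0.126 in HLF, and IGFBP2 at 43.5 and 51.8 in Huh7 and 0.434 and 0.189 in HLF (7.21 ± 0.24). The binding proteins IGFBP3, IGFBP4 and IGFBP7 were lower in Huh7 (-6.76 ± 0.11, -4.90 ± 0.08 and -7.60 ± 0.10), with IGFBP3 at 2.33 and 1.95 CPM in Huh7 and 229 and 236 in HLF. IGF1R and INSR, the receptors, were higher in Huh7 (1.64 ± 0.07 and 2.26 ± 0.08).

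Genes of antiviral defence and antigen presentation were lower in Huh7 in most cases. Of 18 antigen presentation genes 15 were lower, 2 higher and 1 not called, with a median of -1.71. PSMB9, a subunit of the immunoproteasome, was at 0.0666 and 0.269 CPM in Huh7 and 38.3 and 37.5 in HLF (-7.75 ± 0.25), TAP1, the peptide carrier, at 0.933 and 0.808 in Huh7 and 44.8 and 45 in HLF (-5.68 ± 0.18), ERAP2, a peptide-trimming enzyme, at 1.53 and 1.82 in Huh7 and 110.4 and 107 in HLF (-6.01 ± 0.12), and HLA-B at 0.866 and 0.269 in Huh7 and 57.1 and 51.3 in HLF (-6.55 ± 0.19). B2M, the common light chain, differed less (-0.32 ± 0.05), and HLA genes are near-identical to each other in part, so that their counts can be split between them. Of 26 interferon-stimulated genes 19 were lower, 4 higher and 3 not called, with a median of -2.28, or -2.06 with bounds. Among the lower ones, OAS2 and XAF1 had 0 counts in Huh7 and 8 and 13 over both HLF libraries. Both passed the filter only through 3D libraries, so these counts are a description and no test of the list. IFI44 had no counts in Huh7 and 24.3 and 25.1 CPM in HLF, OAS3, an RNA sensor, was at 28.7 and 26.7 in Huh7 and 184 and 198 in HLF (-2.79 ± 0.07), and PARP9 and DTX3L, a pair of ubiquitin and ADP-ribose enzymes, were higher in Huh7 (0.81 ± 0.11 and 0.96 ± 0.08).

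Several sensors of nucleic acids were lower in Huh7 as well. STING1, the adaptor of DNA sensing, was at 1.53 and 0.74 CPM in Huh7 and 27.4 and 28.2 in HLF (-4.60 ± 0.19), TLR3, a receptor for double-stranded RNA, at 0.533 and 0.74 in Huh7 and 8.3 and 7.69 in HLF (-3.63 ± 0.27), and RIGI and IFIH1, sensors of viral RNA, were lower too (-1.81 ± 0.16 and -2.28 ± 0.19). MAVS, their shared adaptor, was higher in Huh7 at 364 and 348 CPM against 219 and 219 (0.70 ± 0.05). IFNLR1, a chain of the receptor for lambda interferons, was at 15.7 and 17.2 CPM in Huh7 and had no counts in HLF. In all, 13 of 22 genes of interferon signalling were lower, 6 higher and 3 not called. Of 18 host factors of hepatitis viruses 12 were higher in Huh7 and 6 lower. The entry factor SCARB1 was at 248 and 264 CPM in Huh7 and 52.3 and 51.2 in HLF (2.31 ± 0.06) and NPC1L1 at 51.6 and 52 in Huh7 and 0.372 and 0.252 in HLF (7.34 ± 0.23), while CD81 and OCLN were lower in Huh7 (-0.80 ± 0.06 and -1.42 ± 0.08), and SLC10A1, the receptor of hepatitis B virus, was too low to test in these libraries.

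Cytokines divided evenly, with 12 of 25 higher in Huh7 and 11 lower. CCL20, an attractant of dendritic and T cells, was at 217 and 218 CPM in Huh7 and 1.49 and 0.441 in HLF (7.80 ± 0.14), and CXCL5, an attractant of neutrophils, at 126 and 117 in Huh7 and 0.248 and 0.315 in HLF (8.71 ± 0.18). CCL2, an attractant of monocytes, had no counts in Huh7 and 109.5 and 101 CPM in HLF, at least 1047-fold higher. LIF and IL6ST, a cytokine and its receptor chain, were read in both lines (0.86 ± 0.08 and -0.99 ± 0.06).

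Genes of embryonic pattern differed cluster by cluster. HLF held HOXB2 to HOXB6 at 4.73 to 12.8 CPM, and Huh7 had no counts of any of the 5, which lie side by side on chr17:48540894-48604992. HOXB8 and HOXB9 were also lower in Huh7, with 1 and 2 counts there. HOXB7 was close, at 2.93 and 2.96 CPM in Huh7 and 3.16 and 2.9 in HLF (-0.04 ± 0.29, not called). The HOXA cluster was divided by position: HOXA2, HOXA3 and HOXA5 were lower in Huh7, and HOXA7, HOXA9, HOXA10 and HOXA11 were higher, HLF having 1 count over those last 4 genes, and HOXA4, HOXA6 and HOXA13 were not called. Of 7 tested HOXC genes 5 were higher, 1 lower and 1 not called. HOXC10 was at 47.6 and 50.8 CPM in Huh7 and 0.496 and 0.819 in HLF (6.21 ± 0.19), HOXC8 at 4.67 and 4.31 in Huh7 and 26 and 26.9 in HLF (-2.56 ± 0.15), and all 4 tested HOXD genes were higher in Huh7. Most of these genes had few counts in at least 1 line.

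**Figure D4:**
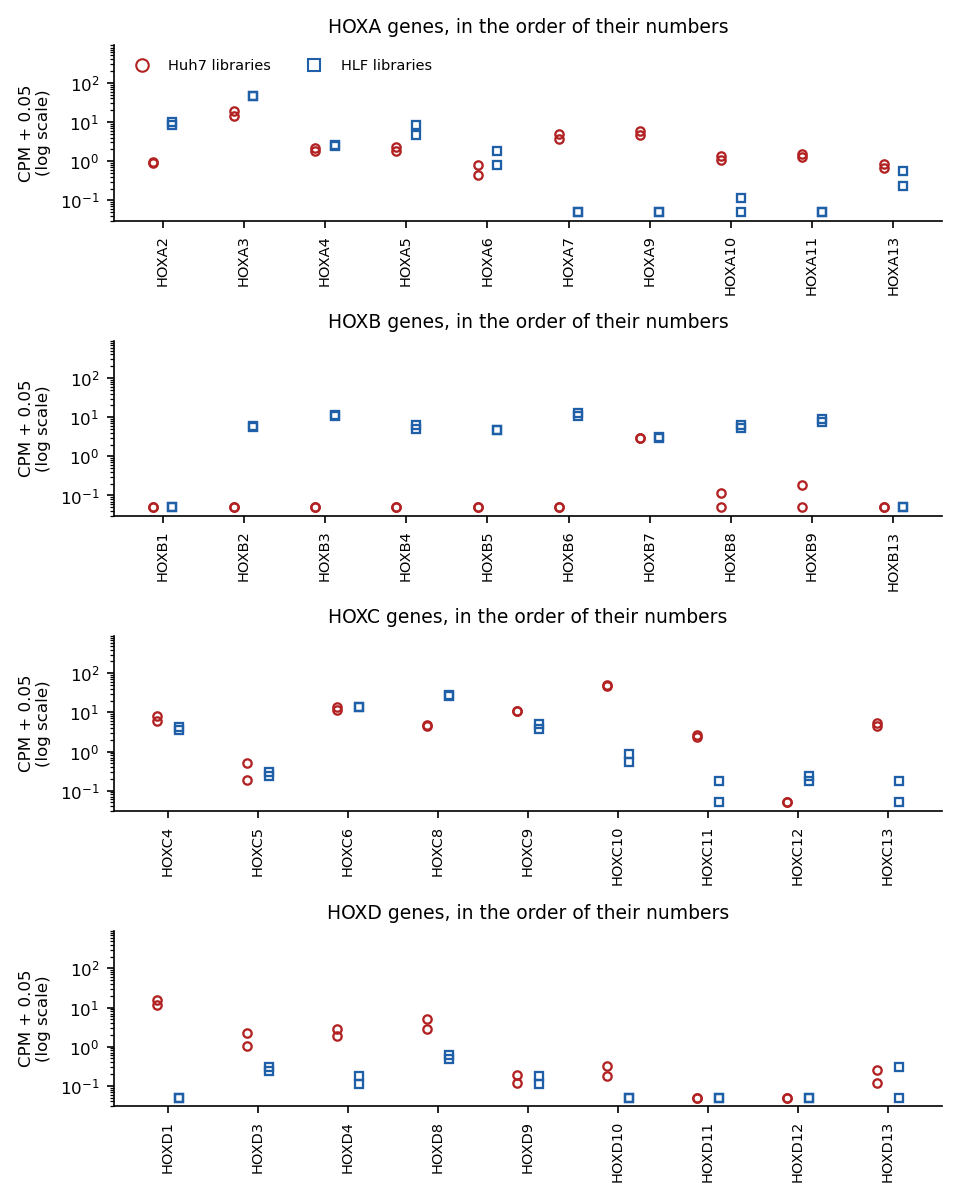
CPM plus 0.05 on a log scale (vertical axis) of genes of the HOXA, HOXB, HOXC and HOXD clusters in each library of 2D, ordered by their number along each cluster, with circles for Huh7 and squares for HLF. HOXB2 to HOXB6 sit at 0 counts in both Huh7 libraries, and HOXA7, HOXA9 and HOXA11 at 0 counts in both HLF libraries.

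Cancer testis antigens were mostly present in HLF and absent from Huh7 counts, with a median of -12.29, or -8.72 with bounds. Of 13 tested, 9 were lower in Huh7, all at no counts there, 3 were higher and 1, PRAME, was not called at 41.7 and 45.3 CPM in Huh7 and 43.1 and 45.6 in HLF. MAGEA4 was at 266 and 259 CPM in HLF and MAGEC2 at 180.0 and 176. MAGEA3, MAGEA6, MAGEA12, SSX1, PAGE2 and PAGE5 have near-identical copies, so their separate counts are uncertain. Huh7 held BRDT, a chromatin reader of the testis, at 91.8 and 90.5 CPM against 0 and 0.756 in HLF (7.89 ± 0.21), and DDX43, a germ cell helicase, at 11.6 and 10.9 with no counts in HLF.

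Transcription factors tied to mesenchymal change were mixed: 12 of 21 were lower in Huh7, 7 higher and 2 not called, with a median of -0.57. TWIST1 had no counts in Huh7 and 13.4 and 12.6 CPM in HLF, ZEB2 was at 0.133 and 0.0673 in Huh7 and 76.9 and 75 in HLF, and ETS1 had no counts in Huh7 and 186 and 186 in HLF, at least 1854-fold. FOSL1, of the AP-1 complex, was at 0.2 and 0.135 CPM in Huh7 and 166 and 162 in HLF (-9.86 ± 0.16). ZEB1 and SNAI1, the better known repressors of E-cadherin, were higher in Huh7, ZEB1 at 27.1 and 25.4 CPM in Huh7 and 17.2 and 16.3 in HLF (0.65 ± 0.13) and SNAI1 at 10.4 and 11.2 in Huh7 and 4.96 and 5.23 in HLF (1.08 ± 0.18). E-cadherin RNA (CDH1) was itself higher in Huh7 (5.32). HMGA2, an oncofetal chromatin protein, was abundant in both lines (-0.35 ± 0.04).

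Genes of cell division differed by small amounts. Of 20 mitosis genes 14 were lower in Huh7, 3 higher and 3 not called, with a median of -0.38 and 0 past 16-fold, and by library totals alone 1 was higher. TOP2A, which untangles DNA, was at 957 and 907 CPM in Huh7 and 872 and 899 in HLF (0.07 ± 0.04, not called, and -0.08 by library totals), and KIF11, a spindle motor, was the furthest at 90.5 and 79.9 in Huh7 and 275 and 261 in HLF (-1.66 ± 0.06). Of 27 cell cycle inhibitors and tumour suppressors 14 were higher and 12 lower, with 9 higher by library totals alone. RB1 was at 122 and 106 CPM in Huh7 and 21.3 and 19 in HLF (2.51 ± 0.08), and CDKN2C at 17.7 and 18.2 in Huh7 and 87.8 and 86.1 in HLF (-2.27 ± 0.08). CTNNB1, beta-catenin, which is not itself a suppressor, was at 1007 and 939 CPM in Huh7 and 333 and 323 in HLF (1.57 ± 0.04). Of 20 targets of NRF2, the regulator of the oxidant response, 6 were higher, 9 lower and 5 not called, with a median of -0.14. NQO1 was at 96.8 and 96.5 CPM in Huh7 and 100.3 and 105 in HLF (-0.08 ± 0.06, not called).

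Metallothioneins, which bind zinc and copper, were read in HLF and at the edge of detection in Huh7. MT2A was at 0.666 and 1.01 CPM in Huh7 and 246 and 229.7 in HLF (-8.13 ± 0.12, edgeR adjusted p = 8.43e-42). MT1E was at 0 and 0.471 CPM in Huh7 and 59.8 and 51.3 in HLF (-7.84 ± 0.22). Of 9 tested, 4 were lower in Huh7, 3 higher and 2 not called. The 3 higher ones, MT1A, MT1F and MT1M, had under 1 CPM in every 2D library. When the 4 libraries of 2D were fitted alone, these 3 were either not called or too low to test. Metallothionein genes are near-identical in part, so low counts in one can come from another.

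Along the chromosomes, the differences were not spread evenly. Of 10743 protein-coding genes at 1 CPM or more in all 4 libraries, the median log2 fold change was -0.07. By chromosome it ran from -0.78 on chromosome 21, with 75 of 101 genes (74.3%) lower in Huh7, -0.72 on chromosome 18 and -0.65 on the X chromosome, to 0.46 on chromosome 3, 0.48 on chromosome 13 and 0.56 on chromosome 8, where 252 of 377 genes (66.8%) were higher. Over all chromosomes 38.5% of these genes were higher and 43.6% lower. In the 3D libraries of the same lines, which share no library with 2D, the medians were -0.71 and -0.72 on chromosome 21, -0.83 in both on chromosome 18, and 0.54 and 0.52 on chromosome 8.

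The X chromosome also held the most genes that were missing in Huh7. Of 422 protein-coding X genes at 1 CPM or more in HLF, 91 (21.6%) had at most 3 counts over both Huh7 libraries and 79 had none, and the next chromosome, 18, stood at 9.34%. In the other direction 27 of 356 X genes (7.58%) were at 3 counts or fewer in HLF, and chromosome 7 was highest at 9.24%. Runs of 3 or more tested neighbours that were near 0 in one line and at 1 CPM or more in the other were counted. There were 34 such runs near 0 in Huh7, 14 of them on X, and 21 near 0 in HLF, none on X. The longest, chrX:80670854-93673568, spanned 13 genes from BRWD3 to NAP1L3, all at 0 counts in Huh7 and at 1.64 to 68.3 CPM in HLF. They included CHM, a helper of Rab proteins, at 51.6 and 52.2 CPM, BRWD3, a bromodomain protein, at 68.3 and 63.1, and APOOL, a mitochondrial protein, at 42.7 and 39.1. MSN, also on X at chrX:65588377-65741931, lay outside that run.

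The runs near 0 in HLF were clusters of liver genes in part. On chr14:94442464-94624646, SERPINA11, SERPINA4, SERPINA5 and SERPINA3, protease inhibitors of plasma, lay with a further gene model. AHSG, FETUB and KNG1 lay together on chr3:186612923-186744410. The trefoil peptides TFF1, TFF2 and TFF3 of the gut lining made a run on chr21:42311667-42366594, and PDX1 and CDX2, factors of the pancreas and intestine, with URAD, a run on chr13:27920020-27988654. CDX2 was at 68.5 and 67.3 CPM in Huh7 and had no counts in HLF, at least 724-fold.

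**Figure D5:**
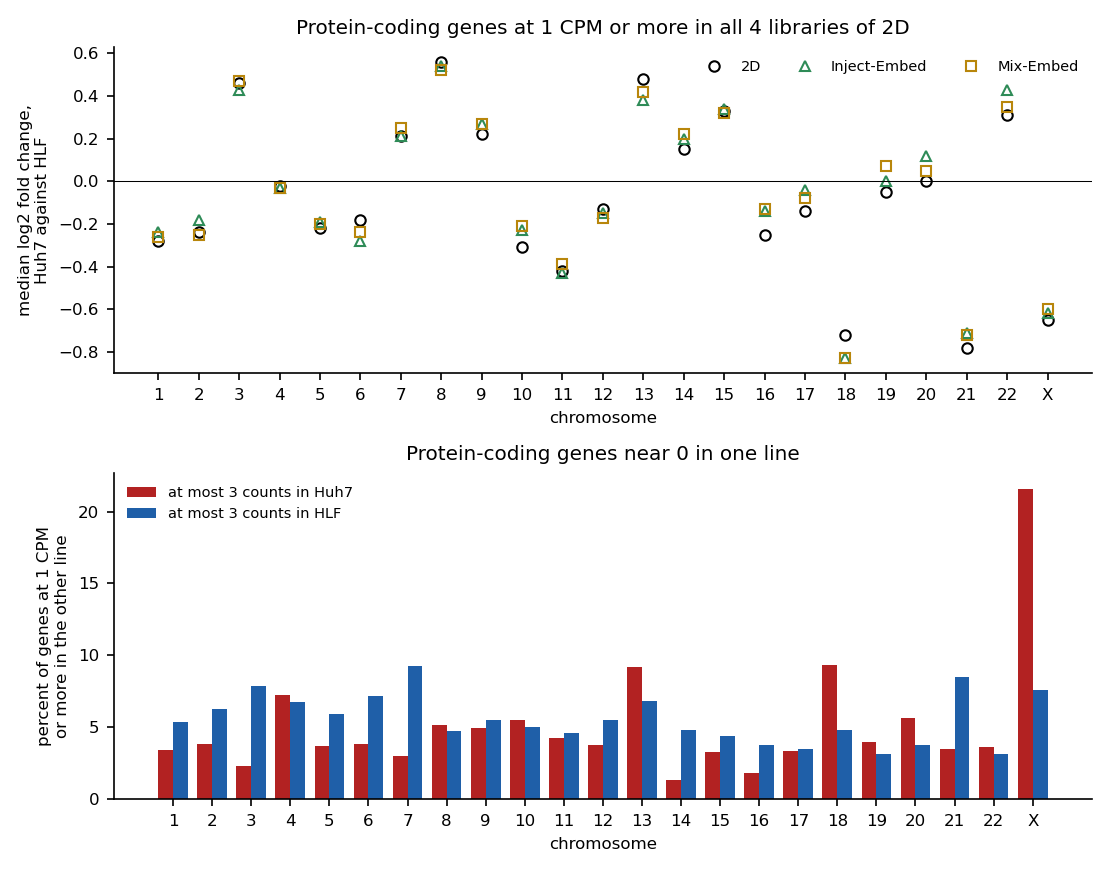
Top, median log2 fold change of Huh7 against HLF for protein-coding genes of each chromosome in 2D, Inject-Embed and Mix-Embed. Bottom, percent of protein-coding genes at 1 CPM or more in one line that had at most 3 counts over both 2D libraries of the other. Chromosomes 18, 21 and X lie lowest in the top panel in all 3 cultures, and the X bar for Huh7 stands at 21.6% in the bottom panel.

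The same lines in 3D tell which of the 2D differences recurred in other libraries. Inject-Embed and Mix-Embed cells, also wild-type and fed complete medium, were held in Matrigel and harvested on days 6 to 8. Wells were seeded with 4000 cells of Huh7 and 2000 of HLF for Inject-Embed, and with 20000 and 10000 for Mix-Embed. Within Inject-Embed 77.1% of genes were called (37.6% higher and 39.5% lower in Huh7), and within Mix-Embed 76.9% (37.9% and 39.1%). Of the 14941 genes called in 2D, 94.0% had the same sign in Inject-Embed and 95.6% in Mix-Embed. For the 3480 genes at least 16-fold apart in 2D these shares were 99.4% and 99.9%. A call in the opposite direction was made for 401 genes in Inject-Embed and 255 in Mix-Embed, and among the 3480 for 5 and 0.

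The size of the line difference itself changed with culture for a part of the genes. By the interaction test of the same model, the difference in 2D was not that in Inject-Embed for 4796 genes (24.8%) and not that in Mix-Embed for 3944 (20.4%). The 2 tests share the 2D libraries, so their overlap is not given as a result. Culture, days of growth and cell number differ together here, and their parts cannot be told apart. Of the 22 genes that the rule of size named, 21 had a group under 0.5 CPM, so their folds rest on few counts, and genes with 10 CPM or more in all 4 groups are described first. Among those, 217 of 7960 (2.73%) had a called difference of at least 2-fold against Inject-Embed, and 137 of 7996 (1.71%) against Mix-Embed.

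RELN, a secreted matrix protein, was 495 and 476 CPM in Huh7 and 57.9 and 63.2 in HLF in 2D, but 250.4 and 259 on average in Inject-Embed and 214 and 443 in Mix-Embed. Its line difference was 3.05 ± 0.08 and 4.05 ± 0.08 larger on the log2 scale in 2D. IFITM3, an antiviral membrane protein, was 83.4 and 88.3 in Huh7 and 134 and 126 in HLF in 2D, 14.9 and 218 in Inject-Embed and 31.8 and 369 in Mix-Embed, so that HLF stood further above Huh7 in 3D (3.27 ± 0.10 and 2.94 ± 0.09). FGB differed less between the lines in 2D than in 3D, with HLF at 167 and 166 CPM in 2D, 26.5 in Inject-Embed and 44.3 in Mix-Embed (-2.31 ± 0.08 and -1.54 ± 0.07). CAVIN1 went from 963 and 994 CPM in HLF in 2D to 516 and 444, and from 24.2 and 25.4 in Huh7 to 39.5 and 47.1, so the lines were nearer each other in 3D (-1.60 ± 0.09 and -2.07 ± 0.09). These 4 genes were picked by the size of their change after the values were seen.

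Among genes at 10 CPM or more in at least 1 of the 4 groups, MT1E and MT2A had the most negative such changes against both cultures. In Inject-Embed MT2A reached 240.3 CPM in Huh7 against 219.9 in HLF, and in Mix-Embed 56.3 against 238, so the lines were close in Inject-Embed (-8.26 ± 0.15 and -6.05 ± 0.17, edgeR adjusted p = 7.02e-37 and 9.35e-29). MT1E moved alike, to 135 and 57.5 in Inject-Embed and 27.6 and 56.2 in Mix-Embed (-9.06 ± 0.24 and -6.81 ± 0.29). Of 26 interferon-stimulated genes, 18 had a difference in 2D that lay further toward Huh7 than in Mix-Embed and 1 less far, against 10.2% and 10.2% of all genes, and for Inject-Embed the counts were 14 and 1 against 13.1% and 11.7%. Some members, such as OAS2, XAF1 and IFITM1, had fewer than 10 counts in every 2D library and passed the filter only through 3D libraries. For such members the direction was not independent of the filter, so these counts are a description and no test of the list. IFITM1, TRIM22 and OASL were under 1 CPM in every 2D library and at 11.5, 10.4 and 29 CPM in HLF in Mix-Embed, with Huh7 at 0.442, 0.139 and 0.0389.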

How the data were processed

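Poly-A RNA of the 12 libraries was sequenced in pairs on a NovaSeq 6000, per the labels' protocols. The submitters' processing notes name FastQC, Trimmomatic, STAR 2.7.9a, featureCounts and GRCh38. The sources used here give no settings, strandedness or annotation release. Raw counts per gene, FPKM values and gene lengths were deposited by the authors. The deposited FPKM equal counts per length and library total within 1e-06 for all 167453 values of at least 20 counts that were checked, so FPKM carry no further scaling. Of 58735 gene IDs in the table, 12 names that had been turned into dates were restored from the IDs.

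edgeR's filter at a minimum of 10 counts kept 19342 genes. Counts were scaled by TMM and fitted with edgeR 4.0.16 in R 4.3.3, by the quasi-likelihood test with Benjamini-Hochberg adjustment, over all 12 libraries with 1 mean per line and culture. The spread was therefore shared by all 6 groups, with 6 residual degrees of freedom and a biological coefficient of variation of 4.6%. A call is an adjusted p under 0.05. Intervals and lower bounds cover counting error only. On simulated counts the fit recovered 46%, 56%, 78% and 94% of genes changed 1.25-, 1.5-, 2- and 4-fold, and 6 of 143 calls were false. In that simulation 50 genes were changed at each fold and all others had the same mean in every library. In the data 77.2% of genes were called, and the share of false calls under so many differences was not tested.

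Genes were named by a rule: the 15 of highest FPKM in each direction with at most 3 counts in the lower line, the 10 largest and 10 smallest log2 fold changes at 10 CPM or more in all libraries, the 6 most abundant called genes under 0.2, the 6 largest and smallest culture differences, runs of 3 or more neighbours, and members of 43 lists and a table of isozymes. Some of these genes enter the counts but are not reported here by name. The lists, the rule and the comparison were chosen with earlier results of these data known. Alternatives were DESeq2 1.42.0, limma 3.58.1 on log2 FPKM with an added 1 or 0.1, other scalings, no filter, a replicate block and leaving out libraries.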

Additional observations from a re-analysis of the deposited data

Results flagged for a closer look

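By the interaction test of edgeR the line difference depended on culture for 4796 genes (24.8%) against Inject-Embed and 3944 (20.4%) against Mix-Embed. In that test the log2 line difference of a 3D culture is subtracted from that of 2D. The 6 genes given here were picked by the size of this same result after the values were seen, so their calls add no support. For RELN, a secreted matrix protein, the result was 3.05 against Inject-Embed and 4.05 against Mix-Embed. HLF lay below Huh7 in RELN in 2D and at or above it in 3D. For IFITM3, an antiviral membrane protein, the result was 3.27 and 2.94. FGB, a fibrinogen chain, had -2.31 and -1.54, and CAVIN1, of caveolae, -1.60 and -2.07. The metallothioneins MT1E and MT2A had -9.06 and -8.26 against Inject-Embed and -6.81 and -6.05 against Mix-Embed. MT2A and MT1E had 25 and 7 counts in Huh7 in 2D, so their size rests on few counts. Culture, days of growth and cell number differ together and cannot be told apart. With 2 libraries a group, no library could be tested as standing apart.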

How the results depend on the processing

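The count of 14941 genes called in 2D was 14930 with RLE size factors, 14994 with library totals alone, 15544 without the filter, 14147 by DESeq2, 14605 and 14779 by limma on log2(FPKM + 1) and log2(FPKM + 0.1), and 14073 from the 4 libraries of 2D alone. It was 9329 with a 2-fold minimum added. Leaving out 1 library gave 14246 to 14376 calls in 2D, 14116 to 14217 in Inject-Embed, 14037 to 14290 in Mix-Embed, and 4013 to 4581 and 3073 to 3765 for the line difference against Inject-Embed and Mix-Embed. With library totals alone the median over all genes was -0.18, and the share of higher calls against Mix-Embed in the line difference went from 50.1% to 62.9%, or 60.9% by limma. With the replicate block the count in 2D was 14882. Deviations of libraries with the same number correlated between -0.051 and 0.053, so no pairing by number was seen. With 1 difference between replicates per group, this cannot show that there was none. Of 237 named genes in 2D, 220 kept direction and call under all 12 alternatives. The sign turned for PRDX1 (-0.04) and HSPD1 (0) with library totals and by limma, for TOP2A (-0.08) with the same, for LDHA (0.01) with RLE and DESeq2, for PFKL and PRAME without Huh7 replicate 1, for HOXB7 without HLF replicate 1, and for TRIM22 without Huh7 replicate 1 (0.58) or HLF replicate 2 (0.47). Leaving out 1 library gave -0.12 to 0.03 for PFKL, -0.09 to 0.03 for PRAME, -0.14 to 0.02 for HOXB7 and -2.1 to 0.58 for TRIM22. Of these, only PRDX1 and HSPD1 were called in the reported fit. Where a scaling or a left-out library is not named, the cause was not tested. For the 6 chromosome medians given by value for 2D, 37 of 72 values under the alternatives moved by more than the spread between pairs of single libraries. Of those medians 0 stayed within that spread under all 12 alternatives, and 0 changed sign. Depth limits the ratios against 3 counts or fewer, which are bounds or have wide intervals.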
